A study of Pongo abelii with 6 samples.

Results

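The genes described here are 10 established targets of p53, out of 15205 genes with a symbol measured in cultured orangutan cells (Pongo abelii) that had been reprogrammed to pluripotency, known as induced pluripotent stem cells. They are CDKN1A, PLK3, CCNG1, GDF15, MDM2, SESN1, ZMAT3, DDB2, FDXR and TNFRSF10B, and they were chosen by their low level in 1 library, Djasinga replicate 3, in earlier results of these data. That low level is therefore given as a description and not tested. There were 6 libraries of total RNA, 3 of the line Dokana and 3 of the line Djasinga. Both lines were kept under the same conditions, on Matrigel in iPS-Brew medium with 1 uM of the Wnt pathway inhibitor IWR1 and 0.5 uM CHIR, and passaged as clumps. Titles call the 3 libraries within a line biological replicates and the design text calls its 3 passages technical ones, so SDs and p-values here measure only the spread between libraries of a line. A treatment label calls the cells differentiated, which the titles and the culture description do not. The genotype label names small RNA and the extraction protocol names both a small RNA and a stranded total RNA method, while the titles say total RNA. No genotype or age of the lines is given in the labels used here. Each group is 1 cell line.

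The transcription factor p53 is held at a low level in unstressed cells by MDM2, a ubiquitin ligase that is itself a p53 target, so that the pair forms a feedback loop. DNA damage and other stresses release p53, which then raises genes for cell-cycle arrest, DNA repair, metabolic adjustment and cell death. Pluripotent stem cells are known for a fast cell cycle and a low threshold for p53-driven death or differentiation.

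Levels are TPM, the length-corrected share of a library's transcripts scaled to a common total, summed over the transcripts paired with a symbol. All 10 genes passed the filter on low values (at least 1 TPM in at least 3 libraries), as did 6255 genes in all, of which 5089 are protein-coding. FDXR was summed over 5 transcripts and each of the other genes rests on 1, while RefSeq lists between 1 (GDF15) and 14 (FDXR) for a gene. More RNA of these genes may sit in assembled transcripts that carry no symbol. Since TPM drops the number of reads, the depth behind each value is unknown. Where 3 values of a line are given, they stand for replicates 1, 2 and 3. In bulk RNA, fewer cells that express a gene and less RNA per cell cannot be told apart.

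Djasinga replicate 3 had the lowest level of all 6 libraries for each of the 10 genes, and in 9 of them it was more than 2-fold below the mean of the other 5 on the log2(TPM + 1) scale. Among all genes tested, this library was the lowest for 33.8% and more than 2-fold lower for 6.46%. The median difference of the 10 genes was -1.63 on the log2 scale, against -0.21 for the median gene. Summed over the 10 genes, the level was 140 TPM in Djasinga replicate 3 and between 342 TPM (Djasinga replicate 2) and 487 TPM (Djasinga replicate 1) in the others. CCNG1 made up 51.8% to 81.1% of these sums, the largest share being in Djasinga replicate 3. Without CCNG1 the sums were 26.5 TPM in Djasinga replicate 3 and 138 to 188 TPM in the other libraries. These values chose the genes and are not evidence beyond that.

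**Figure D1:**
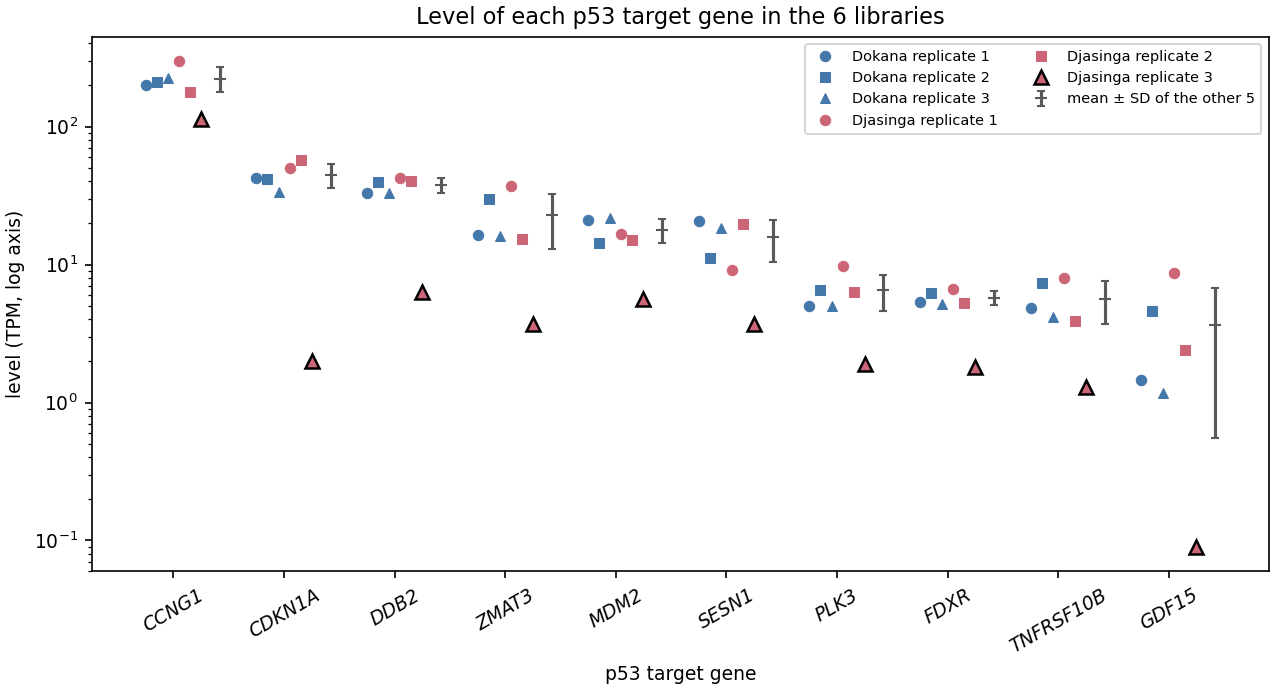
Level of the 10 p53 target genes (TPM, log axis) in each library, with the mean ± SD of the 5 libraries other than Djasinga replicate 3. The outlined triangle of Djasinga replicate 3 is the lowest point of every gene, with the widest gaps for CDKN1A (1.99 TPM) and GDF15 (0.0899 TPM).

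Among the genes of cell-cycle arrest and growth control, CDKN1A had the most negative difference of the 10. It encodes p21, which blocks cyclin-dependent kinases. CDKN1A had 42.7, 41.4 and 33.5 TPM in the Dokana libraries and 49.8, 56.8 and 1.99 TPM in the Djasinga libraries. The low library lay 16.8-fold below the next lowest and 22.5-fold below the mean of the other 5, among which CDKN1A varied by 1.70-fold. On the log2(TPM + 1) scale the difference was -3.91, with an SD of 0.28 among the other 5, and it was the most negative of the 5089 protein-coding genes tested. CDKN1A was second only to CCNG1 among the 10 in the mean of the other 5 libraries (44.8 ± 8.85 TPM, SD, n = 5), at percentile 92.9 of the genes tested. In Djasinga replicate 3 it was at percentile 28.9, below CCNG1, DDB2, MDM2, SESN1 and ZMAT3.

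CCNG1, which encodes cyclin G1, an atypical cyclin that binds the phosphatase PP2A, was the most abundant of the 10 and the least lowered. It had 199, 212 and 226 TPM in the Dokana libraries and 298, 177 and 114 TPM in the Djasinga libraries. The low library was 1.95-fold below the mean of the others and 1.56-fold below Djasinga replicate 2, a gap smaller than the 1.68-fold range among the other 5. At 114 TPM, CCNG1 remained at percentile 97.6 of the genes tested in that library. PLK3, a polo-like kinase of the stress response, had 5.02, 6.52 and 5.04 TPM in the Dokana libraries and 9.72, 6.32 and 1.92 TPM in the Djasinga libraries. Its low value was 2.62-fold below the next lowest, with a 1.94-fold range among the others.

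GDF15, a secreted stress factor of the TGF-beta family, was the most variable of the 10. It had 1.46, 4.61 and 1.16 TPM in the Dokana libraries and 8.67, 2.39 and 0.0899 TPM in the Djasinga libraries. The other 5 libraries already spanned 7.44-fold, and Djasinga replicate 3 was 13.0-fold below the lowest of them. At levels this low the ratio is uncertain, because a value under 0.1 TPM may rest on few reads.

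MDM2, the feedback inhibitor of p53, also had its lowest level in Djasinga replicate 3. MDM2 had 21.0, 14.4 and 21.9 TPM in the Dokana libraries and 16.6, 15.1 and 5.64 TPM in the Djasinga libraries. It kept 31.7% of the mean of the other 5 in the low library, and it was the third most abundant of the 10 there. The difference on the log2 scale was -1.48, with an SD of 0.26 among the other 5.

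SESN1, a sestrin that restrains the growth kinase mTORC1, had 20.6, 11.1 and 18.4 TPM in the Dokana libraries and 9.12, 19.6 and 3.70 TPM in the Djasinga libraries. ZMAT3, a zinc finger protein that binds RNA and affects splicing, had 16.3, 29.7 and 16.1 TPM in the Dokana libraries and 36.8, 15.3 and 3.69 TPM in the Djasinga libraries. Among the 5 other libraries, ZMAT3 was highest in Djasinga replicate 1 and Dokana replicate 2, where SESN1 was lowest. In Djasinga replicate 3 both were low, 2.46-fold (SESN1) and 4.14-fold (ZMAT3) below their next lowest library.

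Of the DNA repair and metabolic genes, DDB2, which recognises ultraviolet damage for nucleotide excision repair, was even across 5 libraries and low in the sixth. It had 32.8, 39.8 and 32.8 TPM in the Dokana libraries and 42.6, 40.4 and 6.35 TPM in the Djasinga libraries. The 5 libraries spanned 1.30-fold, and Djasinga replicate 3 lay 5.17-fold below the lowest of them. The log2 difference of DDB2, -2.39 with an SD of 0.17 among the other 5, ranked 4 from the most negative among the protein-coding genes tested.

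FDXR, a mitochondrial reductase that passes electrons to ferredoxin, was as even at a lower level. It had 5.35, 6.22 and 5.17 TPM in the Dokana libraries and 6.69, 5.27 and 1.80 TPM in the Djasinga libraries, a low value 2.87-fold below the next lowest. Its most abundant transcript, XM_024235170.1, was at 3.01 to 5.10 TPM in the 5 libraries and at 1.56 TPM in Djasinga replicate 3. The next, XM_024235169.1, was at 0.891 to 1.31 TPM and at 0.0755 TPM, so the lower sum was not a shift between these 2 named transcripts. TNFRSF10B, a death receptor for the ligand TRAIL, had 4.85, 7.39 and 4.14 TPM in the Dokana libraries and 8.05, 3.88 and 1.29 TPM in the Djasinga libraries. Its low value lay 3.00-fold below Djasinga replicate 2, the next lowest.

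**Figure D2:**
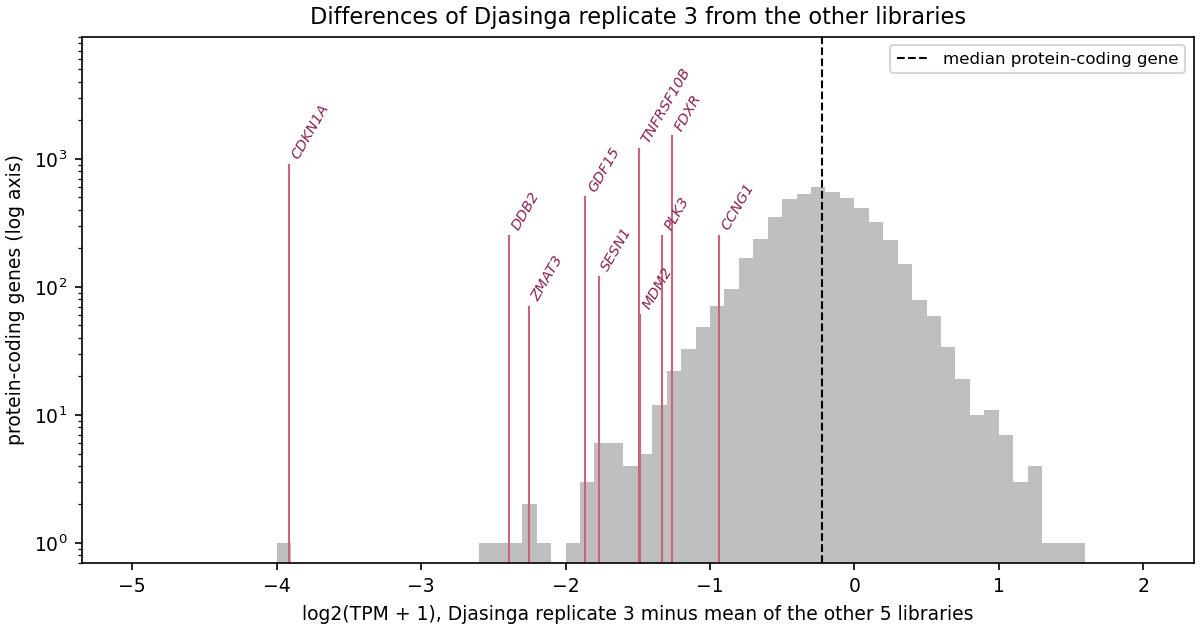
Difference of Djasinga replicate 3 from the mean of the other 5 libraries, log2(TPM + 1), for the 5089 protein-coding genes tested (grey bars, counts on a log axis), with the 10 p53 targets as lines whose heights only separate the names. CDKN1A (-3.91) is at the far left, and CCNG1 (-0.94) is nearest to the dashed median.

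The members just described ranged in size over a wide span. Among the 5089 protein-coding genes, CDKN1A, DDB2, ZMAT3, GDF15 and SESN1 held ranks 1, 4, 6, 10 and 13 from the most negative difference. TNFRSF10B, MDM2, PLK3, FDXR and CCNG1 held ranks 28, 29, 41, 54 and 191. There were 148 protein-coding genes more than 2-fold lower in Djasinga replicate 3 and 17 more than 2-fold higher. After median-ratio scaling, which sets the median gene near 0 in each library, these counts were 79 and 40. Over genes of all classes, 182 of 6255 (2.91%) were more than 2-fold higher as deposited and 274 (4.38%) after scaling. The 10 targets then differed by -3.72 (CDKN1A) to -0.67 (CCNG1), with a median of -1.44, and 9 of the 10 were again more than 2-fold lower, against 5.04% of all genes tested. Measured against the 2 other Djasinga libraries alone, their median difference was -1.61, and against the 3 Dokana libraries -1.54.

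Some other properties of Djasinga replicate 3 lay outside the range of the other libraries, and others lay within it. A single assembled transcript without a symbol took 42.4% of the TPM total in Djasinga replicate 3 and 16.9% to 37.7% in the others. With it left out and the rest rescaled, the median difference of the 10 genes was -1.45 and that of all genes 0.069. Genes with a symbol held 11.9% of the total in Djasinga replicate 3 and 12.5% to 17.6% elsewhere, and 20226 transcripts reached 1 TPM there, against 20818 to 24300. The 7 core pluripotency markers paired with a symbol summed to 253 TPM in Djasinga replicate 3, within the 219 to 416 TPM of the others. Of the 8 fibroblast markers with a symbol, 2 were lowest in Djasinga replicate 3, and the sum of the 8 was 15.3 TPM there and 20.5 to 32.9 TPM elsewhere. Most of that sum was FN1, at 9.56 TPM in Djasinga replicate 3 and 13.2 to 24.0 TPM elsewhere. Sums over 8 trophoblast, 7 mesendoderm, 7 endoderm and 6 neuroectoderm markers were 0.881, 3.71, 0.480 and 8.40 TPM in that library. In the others they ranged from 1.26 to 12.7, from 3.55 to 5.61, from 0.373 to 1.42 and from 8.29 to 11.1 TPM. The trophoblast sum was nearly all IGFBP3, at 0.856 TPM in Djasinga replicate 3 and 1.21 to 12.6 TPM elsewhere, so it rests on 1 gene. TFAP2B (trophoblast and amnion) and HNF4A (endoderm) were listed at 0 in every library. For blood, 7 markers summed to 28.0 TPM there and 19.6 to 42.5 TPM elsewhere, most of it HBA1 (17.1 to 37.6 TPM over the 6 libraries) and HBB (1.42 to 5.51 TPM), while PTPRC reached at most 0.0142 TPM. The part of the marker levels and of the library's composition in the low p53 targets was not tested beyond that rescaling.

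The 10 genes also differed from each other among the 5 remaining libraries. PLK3, GDF15, ZMAT3, FDXR and TNFRSF10B had their 2 highest values of these 5 in Dokana replicate 2 and Djasinga replicate 1, a grouping chosen after the values were seen. Of all genes tested, 6.04% had this order as deposited and 18.0% after median-ratio scaling, where the count of targets was again 5. SESN1 had the reverse order, which 16.3% of all genes had. CDKN1A was highest in Djasinga replicate 2, MDM2 in Dokana replicate 3 and SESN1 in Dokana replicate 1, and the other 7 genes in Djasinga replicate 1.

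**Figure D3:**
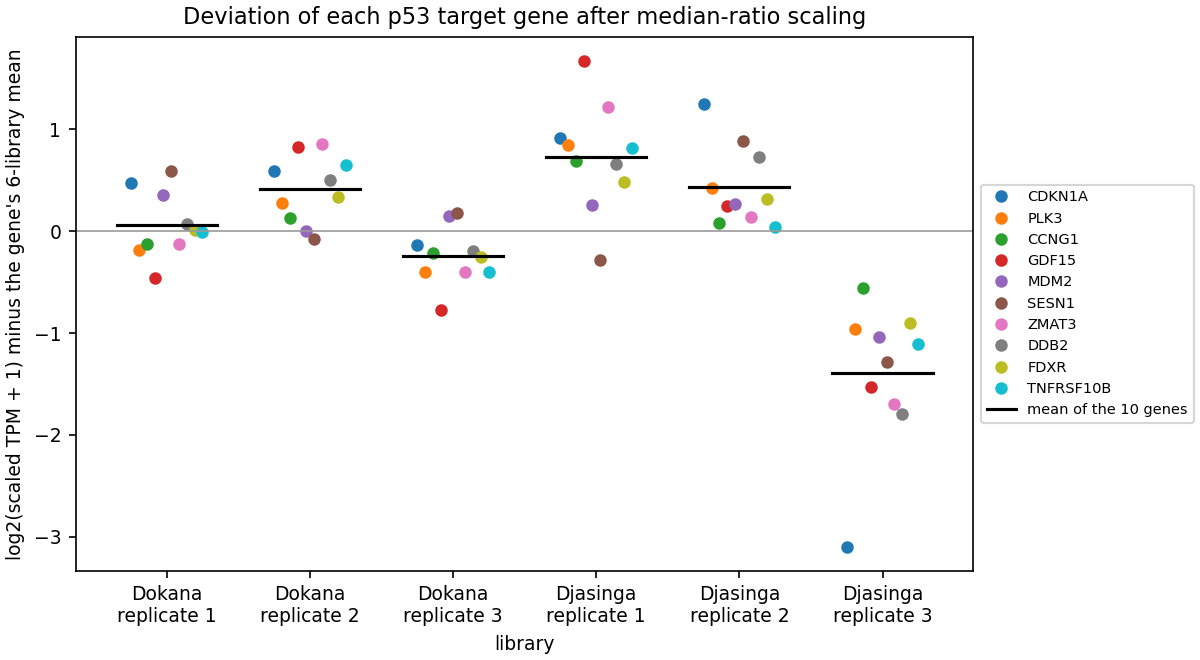
Deviation of each p53 target gene from its own 6-library mean, log2 of TPM + 1 after median-ratio scaling, by library, with the mean of the 10 genes as a bar. The bars run from -1.39 in Djasinga replicate 3 to 0.73 in Djasinga replicate 1, and the bar of Dokana replicate 3 is at -0.24.

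Dokana replicate 3 came next in this respect. After median-ratio scaling it was the lowest of the 5 remaining libraries for 8 of the 10 genes, the exceptions being MDM2 and SESN1, beside 17.9% of all genes. Against the mean of all other libraries, 0 of the 10 were more than 2-fold lower there, beside 2.51% of all genes. That mean includes Djasinga replicate 3, whose low values reduce it for these genes. CDKN1A was at 24.8 scaled TPM in Dokana replicate 3, against 38.3 and 41.7 in Dokana replicates 1 and 2, and DDB2 was at 24.3, against 29.4 and 40.1. As deposited, Dokana replicate 3 was the lowest of the 5 for 3 of the 10 genes and for 2.8% of all genes, so its position depends on the scaling.

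The comparison the design allows, Djasinga against Dokana, found no difference past the threshold for any of the 10 genes. With all 6 libraries, 0 of 10 passed limma on log2(TPM + 1) with Benjamini-Hochberg adjustment over all genes (adjusted p 0.383 for MDM2 to 0.945 for GDF15), and 0 had an unadjusted p under 0.05, beside 14.8% of all genes. Of all genes tested, 0.352% passed, 11 higher and 11 lower in Djasinga as deposited, 13 and 7 after median-ratio scaling, 14 and 6 after quantile normalization and 11 and 7 without the most abundant transcript. Fitted on protein-coding genes alone, 9 were higher and 39 lower in Djasinga. The 3 Djasinga libraries of these genes spread so widely that the intervals are broad: for CDKN1A the levels were 39.2 ± 4.99 TPM in Dokana and 36.2 ± 29.8 TPM in Djasinga (SD, n = 3), a log2 difference of -0.95 with a 95% interval of -3.45 to 1.55. For DDB2 they were 35.1 ± 4.02 and 29.8 ± 20.3 TPM, with an interval of -2.15 to 0.94. Line differences inside these intervals are compatible with the fit. The genes were chosen by 1 low Djasinga library, which widens the Djasinga spread, so the lack of calls with all 6 libraries is not independent of the choice.

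Without Djasinga replicate 3, the line contrast no longer uses the library whose low level chose the genes. That low level was relative to the other 5 libraries, and the filter and scaling factors still came from all 6. For these reasons the contrast is not fully independent of the choice. It then has 2 Djasinga libraries against 3, and 0 of the 10 passed (limma adjusted p 0.484 to 0.918), with 0 at an unadjusted p under 0.05. Over all genes 0.112% passed, and 9.46% were under 0.05 before adjustment. The median gene differed by -0.27 between the lines in this fit, and 8 of the 10 targets had a positive difference (median 0.18). After median-ratio scaling all 10 were higher in the mean of the 2 Djasinga libraries, with a median log2 difference of 0.51 against -4.3e-05 for all genes, and 0.256% of all genes passed. CDKN1A differed by 0.77 (SE 0.26, 95% interval 0.097 to 1.45) and PLK3 by 0.74 (SE 0.26, 0.074 to 1.40). These were the 2 of the 10 with an unadjusted p under 0.05, beside 7.75% of all genes, and neither passed after adjustment (limma adjusted p 0.608 and 0.611). MDM2 differed by 0.089 (SE 0.14) after this scaling, with an interval of -0.27 to 0.45. As deposited it differed by -0.23 (SE 0.25), with an interval of -0.84 to 0.37, so the sizes inside the interval depend on the scaling. After scaling, GDF15 had the largest estimate of the 10 and the widest interval, 1.10 with bounds of -0.59 and 2.78.

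**Figure D4:**
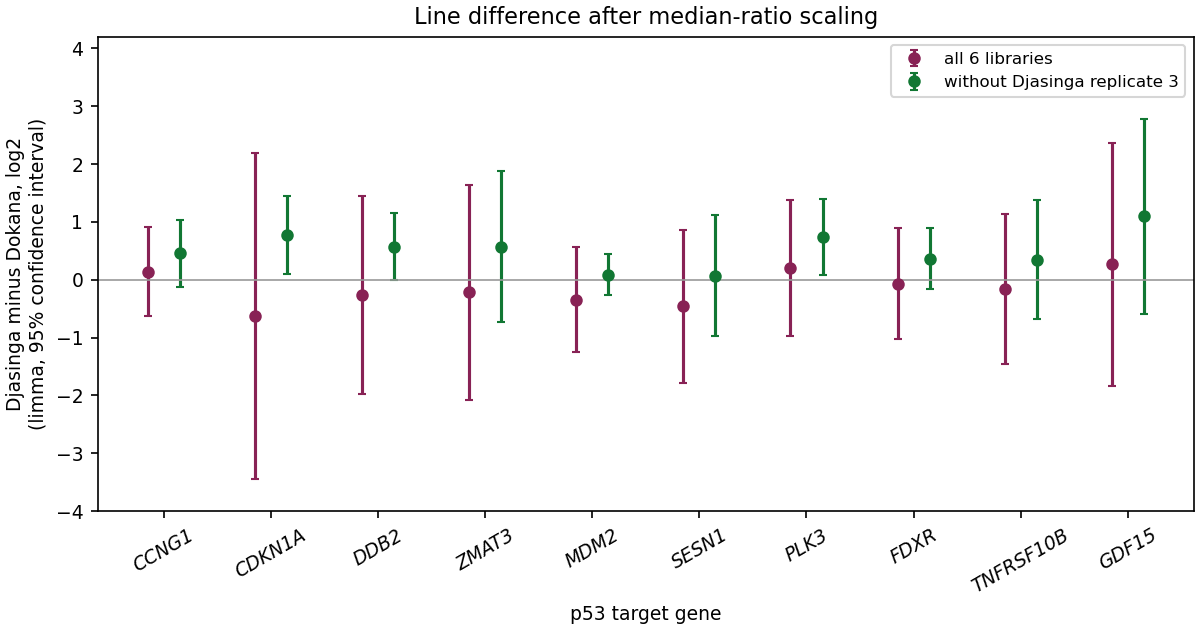
Djasinga minus Dokana for each p53 target gene after median-ratio scaling, log2, as limma estimates with 95% confidence intervals. With all 6 libraries every interval crosses 0, and without Djasinga replicate 3 the intervals narrow and all 10 estimates lie above 0, those of CDKN1A and PLK3 with intervals above 0 before adjustment.

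Other p53 targets had a smaller median difference in Djasinga replicate 3. Of 84 further targets on the lists used here, 44 had no transcript paired with the symbol, 15 were below the filter and 25 were tested. Their median difference was -0.63 as deposited, against -0.21 for all genes, and -0.42 after median-ratio scaling, against 0.0057. Djasinga replicate 3 was the lowest of the 6 libraries for 19 of the 25 as deposited and 17 of the 25 after scaling, beside 33.8% and 24.7% of all genes. As deposited 6 of the 25 were more than 2-fold lower (POLH, BAX, DRAM1, NINJ1, IER5 and RPS27L), beside 6.46% of all genes, and after scaling 2 (POLH and DRAM1), beside 5.04%. Between the lines 0 of the 25 passed (limma, smallest adjusted p 0.326), and 1 had an unadjusted p under 0.05, beside 14.8% of all genes.

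POLH, a DNA polymerase that copies past ultraviolet lesions, had the most negative difference of the 25 (-1.70 as deposited), inside the range of the 10. That was more negative than those of TNFRSF10B, MDM2, PLK3, FDXR and CCNG1. The differences of BAX, DRAM1, NINJ1, IER5 and RPS27L (-1.26 to -1.07) were also more negative than that of CCNG1 (-0.94). POLH was lowest in Djasinga replicate 3. It had 7.30, 6.55 and 6.11 TPM in the Dokana libraries and 6.02, 7.10 and 1.35 TPM in the Djasinga libraries, 4.91-fold below the mean of the other 5. BAX, which permeabilises mitochondria in cell death, was 2.46-fold below that mean. DRAM1, linked to autophagy, was 3.54-fold below it, at 1.15 TPM against 3.22 to 4.93 TPM. RPS27L, a ribosomal protein paralogue, was at 15.7 TPM in Djasinga replicate 3 and at 26.5 to 48.8 TPM elsewhere, with Djasinga replicate 1 the highest, as for 7 of the 10. NINJ1, a membrane protein of cell rupture, was at 6.87 TPM against 14.5 to 19.0 TPM. BAX, DRAM1, NINJ1, IER5 and RPS27L are named after their values were seen. TP53I11 went the other way, at 11.4 TPM in Djasinga replicate 3 and at 1.97 to 7.84 TPM in the other libraries. It was the single one of the 25 more than 2-fold higher there, beside 2.91% of all genes as deposited and 4.38% after scaling.

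Regulators of p53 stood near the median gene in this library. Of 29 listed genes 15 were tested, with a median difference of -0.17 as deposited and 0.096 after scaling. On the log2(TPM + 1) scale, on which all such counts are made, 0 of the 15 were more than 2-fold lower. The share of all genes was 6.46% as deposited and 5.04% after scaling. For PPM1D, a phosphatase of this pathway, no transcript was paired with the symbol, and its level was not analysed here. MDM4, a partner of MDM2 that inhibits p53, had 1.86, 1.05 and 2.41 TPM in the Dokana libraries and 0.562, 0.683 and 1.74 TPM in the Djasinga libraries, so Djasinga replicate 3 was the highest of its line. ATM, the kinase that signals DNA breaks to p53, had the most negative difference of the 15 (-0.97), at 0.321 TPM against 0.976 to 2.86 TPM. In TPM itself that was 5.19-fold below the mean of the other 5, at a level where the log2(TPM + 1) scale understates the difference. It is named after its values were seen.

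Genes that p53 represses through p21 and the DREAM complex, mostly of the cell cycle, also stood near the median gene. Of 53 listed genes 27 were tested, and their median difference was -0.10 as deposited and 0.15 after scaling. More than 2-fold lower were 0 of the 27, beside 6.46% of all genes as deposited and 5.04% after scaling. RRM2, a subunit of ribonucleotide reductase, was at 16.8 TPM in Djasinga replicate 3. It was the one gene of this list more than 2-fold higher after scaling (1.12), beside 4.38% of all genes. RRM2 reached 16.1 TPM in Dokana replicate 3 as well, against 6.45 to 9.78 TPM in the other 4 libraries. Of 19 genes of the integrated stress response 6 were tested, with a median of -0.21 as deposited and -0.0072 after scaling. Of 24 immediate-early genes 4 were tested, with a median of -0.79 as deposited and -0.57 after scaling. More than 2-fold lower were 2 of the 4 as deposited, beside 6.46% of all genes, and 0 after scaling, beside 5.04%. Among those 2 was IER5, which is also on the list of other p53 targets. Between the lines 0 genes of these 4 lists passed (limma, smallest adjusted p 0.302), with 2 of 15 regulators, 8 of 27 DREAM, 2 of 6 stress response and 0 of 4 immediate-early genes at an unadjusted p under 0.05, beside 14.8% of all genes.

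**Figure D5:**
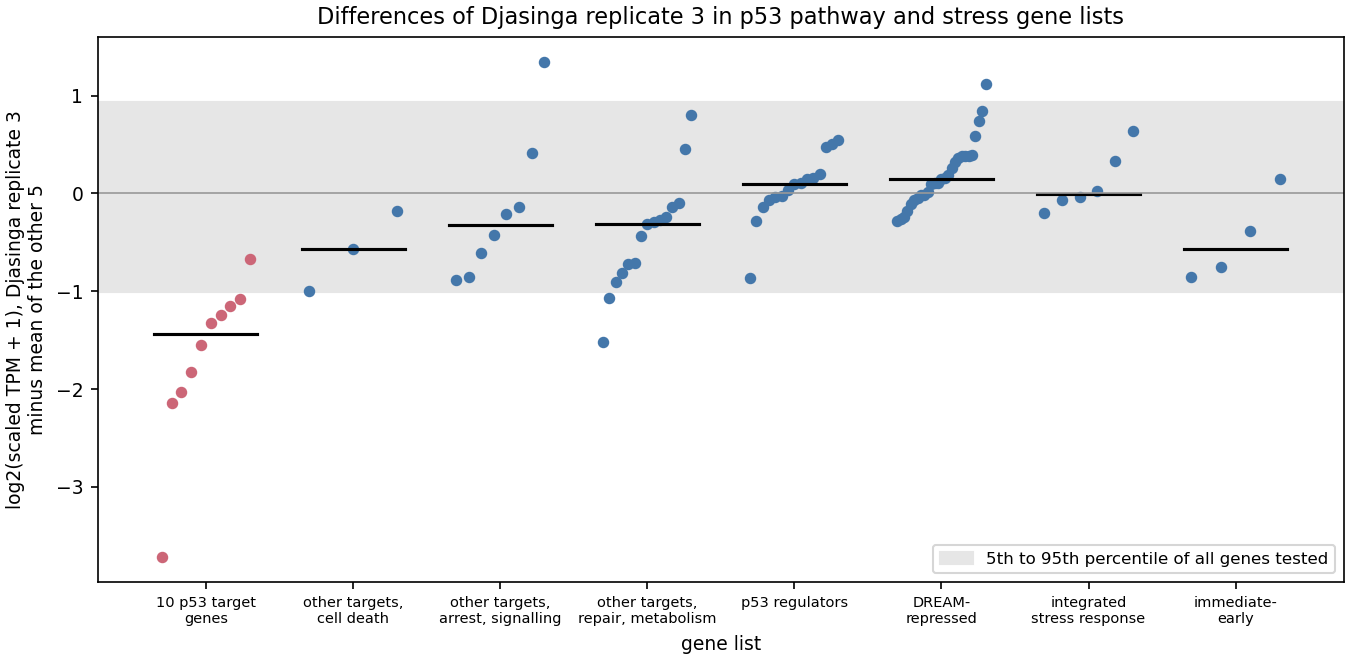
Difference of Djasinga replicate 3 from the mean of the other 5 libraries after median-ratio scaling, log2, for each tested gene of the 10 targets and 7 further lists, with list medians as bars and the 5th to 95th percentile of all genes shaded. The bar of the 10 targets is at -1.44, and those of the p53 regulators and of the DREAM-repressed genes are at 0.096 and 0.15.

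The genes whose levels followed the mean profile of the 10 targets most closely over the 6 libraries were, in order, C1H1orf43, VPS28, ANKRA2, MACROD1, VWA5A, NTPCR, KIAA0319L, PRKAB2, SMYD3 and RPSA. Pearson's r over the 6 libraries, after median-ratio scaling, was between 0.975 (RPSA) and 0.993 (C1H1orf43) among 2394 candidates with a mean of at least 5 TPM. This is a description over 6 points, 1 of which is the low library. Of the candidates, 96 had an r of at least 0.9. Among those 96, 5 were more than 2-fold lower in Djasinga replicate 3 after scaling, beside 5.04% of all genes tested. C1H1orf43 differed by -0.47 there after scaling, so a high r does not mean a difference as large as that of the targets. Over the other 5 libraries r was between 0.876 (SMYD3) and 0.990 (MACROD1). ANKRA2 and PRKAB2, a regulatory subunit of the energy sensor AMPK, are also on the list of other p53 targets. PRKAB2 had 14.6, 15.6 and 17.6 TPM in the Dokana libraries and 17.5, 14.9 and 7.77 TPM in the Djasinga libraries. NTPCR, a nucleotide triphosphatase, had the most negative difference of these 10 (-1.05 after scaling), at 7.67 TPM against 18.4 to 21.9 TPM. Each p53 target is itself part of the mean profile, so its r is not directly comparable with those above. Of the targets, FDXR (r = 0.995) and DDB2 (0.988) were nearest to the mean profile and SESN1 (0.666) was farthest. Over the 5 remaining libraries SESN1 (-0.31) and MDM2 (-0.0038) had values of r below 0.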

How the data were processed

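Total RNA of 6 libraries was measured. Each deposited column gives TPM for single transcripts, per the file headers, and all 6 columns have 1 total. The 0 or 1 flags for retroviral entries were not used. Trimmomatic 0.39, FastQC 0.11.9, STAR and StringTie are named without roles, per the submitters' processing notes; the quantifier, the build and the annotation were not stated there or elsewhere in the labels. Accessions were matched without version to RefSeq genes (assembly NHGRI_mPonAbe1-v2.0), which named 22112 of 43705 RefSeq transcripts (50.6%), and TPM was summed per symbol. The version differs for most: 3321 matched with it.

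The line test was limma-trend on log2(TPM + 1) over the 6255 genes that reached 1 TPM in 3 or more libraries; p-values were adjusted by Benjamini-Hochberg and called under 0.05. This scale understates the fold change of low genes. The fit was tested on simulated data. Replicate numbers stand under a batch tag in the labels, so a fit with the number as a block was also run; across genes, same-numbered libraries deviated from their line means with correlations of -0.093, -0.13 and 0.15. Median-ratio factors came from genes above 0 in all libraries. The members and lists were chosen with earlier results of these data known. Genes named beside the 10 targets are MDM4, list genes more than 2-fold off after median-ratio scaling with at least 5 TPM in the other 5 libraries, the 10 most alike genes, and those said to be named after their values were seen. The tools were R 4.3.3 and limma 3.58.1 for the fits, and Python 3.11.15, numpy 2.4.6, pandas 2.3.3 and matplotlib 3.10.9 for the rest.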

Additional observations from a re-analysis of the deposited data

How the results depend on the processing

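Under every alternative run the 10 p53 targets were lower in Djasinga replicate 3 than the mean of the libraries compared, in 129 of 129 values. The genes were chosen by that low level, so this count was nearly fixed beforehand and is a description only. Of 159 line differences of these genes, 0 passed the limma threshold, while 29 changed sign. The median difference in Djasinga replicate 3 was -1.28 after quantile normalization and -1.99 with a pseudocount of 0.1, beside -1.63; leaving out each other library gave -1.64 to -1.52. Requiring the accession version left CCNG1 alone (-0.94) and 0 of 3 other targets more than 2-fold lower. That count, 6 of 25 as deposited, was 2 after median-ratio scaling, 3 after quantile normalization, 10 with a pseudocount of 0.1 and 3 of 28 without the most abundant transcript. With each gene's most abundant transcript in place of its sum, it was 8 of 22. In that setting FDXR differed by -0.96, and 8 of the 10 p53 targets were more than 2-fold lower, beside 9 with the sums.

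The count of all genes called between the lines, 22, depended more on the settings. It was 10 with a pseudocount of 0.1, 9 with a filter of 5 TPM, 0 with the version required (limma) and 48 among protein-coding genes alone (9 higher and 39 lower in Djasinga). With the replicate number as a block it was 5, and 1 with median-ratio scaling as well, and the block changed no call among the 10 targets. Leaving out 1 library gave 7 to 23; it was 12, 9 and 7 when Dokana replicate 1, 2 or 3 was left out and 10 and 7 when Djasinga replicate 1 or 3 was. The causes of these shifts were not tested. The fits without the most abundant transcript and of protein-coding genes alone were chosen after seeing the data. The unknown depth limits the low values, those of GDF15 above all, and the low library is 1 sample without a replicate.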
